A study of Homo sapiens with 6 samples.

Results

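The metallothionein genes of OVCAR5 ovarian cancer cells were examined together with MTF1 and SLC30A1, which belong to the same zinc circuit. The members were chosen by gene symbol: MT1E, MT1F, MT1G, MT1M, MT1X, MT2A, MTF1 and SLC30A1 gave 8 of the 60649 gene rows, 1 row for each symbol, of which 6 encode metallothioneins. OVCAR5 is an established human line of epithelial ovarian cancer. The libraries were made from cells infected with lentivirus and kept under puromycin until expression was stable, 3 libraries with a METTL3 expression construct in the pCDH vector and 3 with the empty vector. METTL3 is the catalytic subunit of the complex that writes N6-methyladenosine (m6A) on mRNA. One field of the labels calls the controls parental, whereas the treatment protocol says that they received empty-vector lentivirus. Whether the cells were pools or clones is not given in the sources used here. No treatment beyond puromycin was named for any of the 6 libraries, and nothing in the labels says that libraries of a group came from separate infections or cultures, so p-values measure the spread between these libraries, which may be technical.

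Metallothioneins are small, cysteine-rich proteins that bind zinc and copper as well as toxic metals such as cadmium through their cysteine thiols. MTF1 is the zinc-sensing transcription factor that enters the nucleus when free zinc rises and binds metal response elements (MREs), short motifs in the promoters of metallothionein genes and of SLC30A1. SLC30A1 (ZnT1) carries zinc out of the cell across the plasma membrane, so that it is a target of MTF1 and not an activator of metallothioneins, although the rule that chose the members names both as activators. Binding of platinum drugs by metallothioneins is a classical topic in ovarian cancer, and cisplatin response was the subject of the study that made these libraries.

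The 6 metallothionein members lie on chromosome 16 (GRCh38, GENCODE release 44) between 56608584, the start of MT2A, and 56684196, the end of MT1X. In order along the chromosome they are MT2A (56608584 to 56609497), MT1E (56625475 to 56627112), MT1M (56632659 to 56633981), MT1F (56657731 to 56660698), MT1G (56666730 to 56668065) and MT1X (56682470 to 56684196). MT1G is on the minus strand and the other 5 are on the plus strand. MTF1 (37809574 to 37859592) and SLC30A1 (211571568 to 211579161) are both on the minus strand of chromosome 1. RefSeq gave a promoter window (GRCh38.p14) for MT2A, MT1X, SLC30A1 and MTF1, that is for 4 of the 8 members, and the others, MT1E, MT1F, MT1G and MT1M, had no entry. The 250 bases before the start were searched on both strands for the MRE core, spelled TGCACNC or TGCGCNC. The windows of 3 members are printed 5′ to 3′ on the gene's own strand because they hold the matches counted next, with the matches in capitals. The MT2A window is chr16:56608334-56608583 (plus strand), that of MT1X is chr16:56682220-56682469 (plus strand), and that of SLC30A1 is chr1:211579162-211579411 (minus strand).
MT2A: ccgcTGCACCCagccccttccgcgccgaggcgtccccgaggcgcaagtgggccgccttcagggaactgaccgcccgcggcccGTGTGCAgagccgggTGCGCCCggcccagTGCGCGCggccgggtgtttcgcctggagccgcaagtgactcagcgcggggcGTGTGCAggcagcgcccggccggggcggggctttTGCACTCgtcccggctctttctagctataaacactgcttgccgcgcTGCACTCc
MT1X: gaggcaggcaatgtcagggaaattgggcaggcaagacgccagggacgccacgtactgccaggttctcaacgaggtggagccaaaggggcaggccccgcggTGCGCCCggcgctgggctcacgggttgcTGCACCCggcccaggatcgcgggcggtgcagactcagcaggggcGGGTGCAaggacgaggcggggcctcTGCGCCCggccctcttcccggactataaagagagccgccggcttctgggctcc
SLC30A1: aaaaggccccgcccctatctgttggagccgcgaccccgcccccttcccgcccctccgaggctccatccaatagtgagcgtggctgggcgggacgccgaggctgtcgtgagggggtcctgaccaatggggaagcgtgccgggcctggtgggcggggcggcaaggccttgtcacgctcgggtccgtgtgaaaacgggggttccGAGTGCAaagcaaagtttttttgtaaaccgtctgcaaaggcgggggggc

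The MT2A window held 7 matches, 5 on the strand of the gene and 2 on the other, the nearest ending 2 bases before the start. MT1X held 4 and SLC30A1 held 1, on the opposite strand 43 to 49 bases before the start. The MTF1 window (chr1:37859593-37859842, minus strand) held 0. The windows of the other metallothioneins MT1H, MT4 and MT1B held 8, 3 and 3 matches, although these genes had counts of 0 to 2 in every library. No matches overlapped each other in the windows of the 4 members. Of 35116 RefSeq promoter windows of the same 250 bases, 24.8% held at least 1 match, 0.37% held at least 4 and 0.0313%, or 11 windows, held at least 7. A match is only a string of letters and was not tested for binding.

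**Figure D1:**
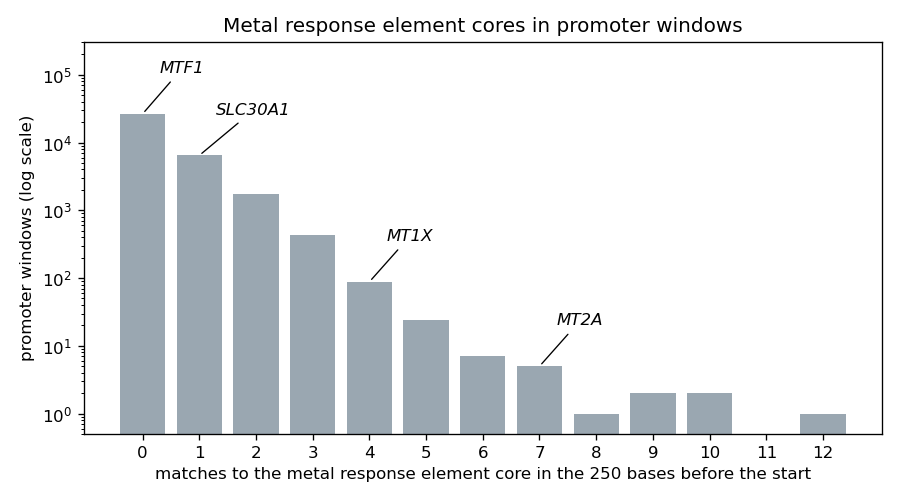
Number of matches to the MRE core in the 250 bases before the start of each gene (x axis) against the number of promoter windows with that many matches (y axis, log scale), over 35116 windows. MT2A with 7 and MT1X with 4 lie in the thin right end of the distribution, whereas SLC30A1 with 1 and MTF1 with 0 lie in its bulk.

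The coding sequences show how alike these genes are. All 6 metallothionein members have a coding sequence of 186 bases with the stop codon, that is 61 codons, of which 20 are for cysteine. The 2 most abundant are printed with the cysteine codons in capitals. The processed pseudogene MT2P1 on chromosome 4 (68376323 to 68376505) follows, with capitals at the bases that differ from MT2A.
MT2A: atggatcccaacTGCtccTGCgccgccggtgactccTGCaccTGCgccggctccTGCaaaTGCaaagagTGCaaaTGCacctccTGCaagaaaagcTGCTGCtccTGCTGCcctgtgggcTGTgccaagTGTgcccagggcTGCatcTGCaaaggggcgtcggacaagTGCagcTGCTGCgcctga
MT1E: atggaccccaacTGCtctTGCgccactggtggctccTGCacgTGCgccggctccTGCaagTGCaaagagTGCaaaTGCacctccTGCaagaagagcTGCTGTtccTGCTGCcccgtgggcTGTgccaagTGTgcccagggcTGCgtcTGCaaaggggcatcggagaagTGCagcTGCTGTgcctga
MT2P1: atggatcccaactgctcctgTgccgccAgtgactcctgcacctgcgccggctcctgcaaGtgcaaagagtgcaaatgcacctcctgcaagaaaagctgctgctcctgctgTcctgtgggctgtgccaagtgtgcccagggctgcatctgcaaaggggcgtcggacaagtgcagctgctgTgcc

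Between pairs of the 6 members the coding sequences were 88.7% to 95.2% identical (median 91.4%, 15 pairs). MT2P1 has 183 bases, with 5 substitutions against MT2A and 3 of its bases absent, and was 95.7% identical to it. The sharing matters more for short reads than for long ones. Of all 50-base words in its transcripts, MT1X shared 18.7% with other genes of the table, MT1G 16.4%, MT1M 10.4%, MT1E 6.6%, MT2A 4.2% and MT1F 1.2%, against 0.6% for MTF1 and 0% for SLC30A1. Of 150-base words, MT1X shared 8.8% and the other 7 members 0%. The shared words of MT1X belonged mostly to an overlapping long non-coding RNA with a count of 0 in every library, which covers 165 of the 404 bases of the MT1X reference transcript (40.8%). The labels give paired reads of 150 bases and a stranded TruSeq kit, whereas the methods of the study give single reads of 50 bases and an NEBNext kit, and the treatment of reads matching several genes is not given in the sources used here. The split of counts among the metallothionein rows is therefore uncertain.

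The reference transcripts of these genes also differ in their count of a motif tied to METTL3, and in length. GGACT, the commonest spelling of the m6A consensus, occurred 0 times on the sense strand of the reference transcript of each of the 6 metallothionein members, 6 times in MTF1 and 4 times in SLC30A1. The 6 metallothionein transcripts are short (398 to 746 bases), whereas those of MTF1 and SLC30A1 have 7937 and 5893 bases. Per kilobase, MTF1 held 0.756 and SLC30A1 0.679, both below the median of 0.924 over all reference transcripts. Of 19061 reference transcripts, 88.5% held the motif, and of the 104 with 350 to 450 bases 31.7% held it. Other spellings of the consensus were not searched, and no methylation was measured in these libraries.

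The depth was even across the libraries, with 96633925 to 125463386 counts in each. Levels are given as CPM, read counts brought to a common library total after scaling by the trimmed mean of M values (TMM). METTL3 itself checked the labels, with 152, 165 and 175 CPM in the METTL3 group against 80.6, 68.6 and 71.6 CPM in the vector group (replicates 1, 2 and 3 in that order here and throughout), a log2 fold change of 1.16 (SE 0.117, adjusted p = 0.072 by edgeR's quasi-likelihood test). Replicate 1 of both groups stood apart: on the first principal component of all genes tested, with 40.5% of the variance, it lay at -52.9 (METTL3) and -43 (vector), against 6.15 to 40.9 for the other 4 libraries. Results are therefore given with and without replicate 1. The epithelial markers EPCAM, CDH1, KRT8, KRT18 and KRT19 summed to 5593 to 8834 CPM. Immune, endothelial and fibroblast markers summed to 7.12 to 11.4, 5.15 to 22.1 and 8.23 to 18.2 CPM, nearly all from CD14, PECAM1 and COL1A1.

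MT2A and MT1E carried nearly all metallothionein mRNA in these cells. MT2A gave 67.7% to 76% of the summed CPM of the 6 metallothionein members and MT1E 21.8% to 29.7%. By mean CPM, MT2A ranked 394 and MT1E 1795 among the 22038 genes tested. On the scale of CPM per kilobase of reference transcript, the mean level over the 6 libraries was 918 for MT2A (range 445 to 1131), 173 for MT1E (105 to 217), 16.2 for MT1F (10.7 to 21.8), 15.3 for SLC30A1 (13.7 to 17.7), 9.08 for MT1X (4.74 to 11.9), 3.36 for MTF1 (3.07 to 3.73), 1.46 for MT1M (0.49 to 2.5) and 0.53 for MT1G (0.276 to 1.39). Neighbours in this order that did not differ beyond their spread over the libraries were MT1F and SLC30A1, and MT1M and MT1G. The ranges of the other neighbours did not overlap. This scale depends on the transcript taken as reference, which has 746 bases for MT1E and 401 for MT2A. It also depends on how reads in overlapping genes were counted, which is not known. Of the MT1X reference transcript, 40.8% lies in exons of an overlapping gene, so the place of MT1X in this order is uncertain. The coding sequence printed for MT1E came from another of its transcripts.

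**Figure D2:**
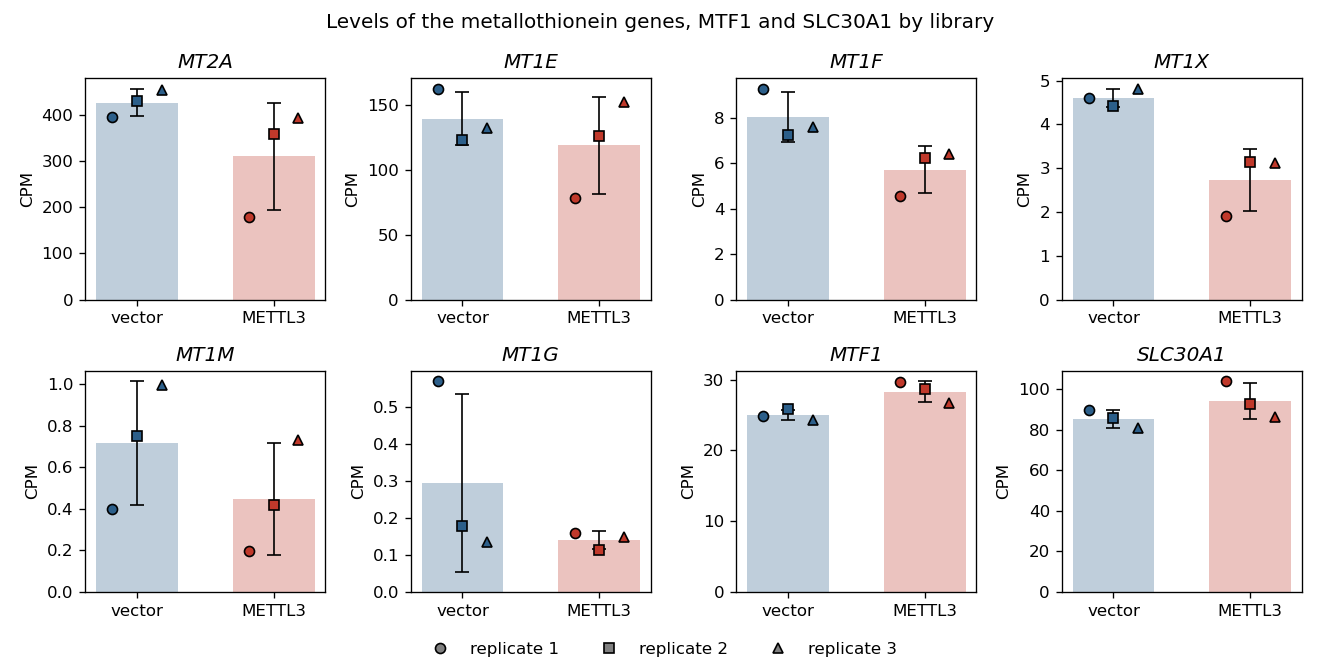
Level of each member in CPM (y axis, from 0) in the 3 vector and 3 METTL3 libraries (x axis), with 1 point per library shaped by replicate number, bars at the group mean and error bars of 1 SD (n = 3). The circle of METTL3 replicate 1 is the lowest of the 6 points for MT2A, MT1E, MT1F, MT1X and MT1M, and the highest for MTF1 and SLC30A1.

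The comparison of METTL3 with vector asked whether forced METTL3 expression was accompanied by a change in these genes. All 6 metallothionein members had a negative log2 fold change, and MTF1 and SLC30A1 had a positive one, but none of the 8 passed the test on all 6 libraries. In bulk RNA, fewer expressing cells and less mRNA per cell cannot be told apart. The metallothionein values ran from -1.05 for MT1G to -0.23 for MT1E, with a median of -0.59, against a median of -0.02 over all genes tested. With edgeR's quasi-likelihood test, 0 of 22038 genes had an adjusted p under 0.05 (percent called: 0), so the count of 0 members is the same as that for the table as a whole. At an unadjusted p under 0.05 there were 2 of 8 members, MT1X and MT1F, both lower, against 8.3% of all genes in either direction, with 3.91% lower and 4.4% higher. DESeq2 called 213 genes (1.08% of those it adjusted), edgeR with no filter on low counts 560 (1.3%) and edgeR without vector replicate 1 367 (1.62%), and none of these were members.

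MT2A, the most abundant metallothionein, was at 178, 359 and 393 CPM with METTL3 and at 395, 429 and 454 CPM with vector. METTL3 replicate 1 was far below every other library, whereas METTL3 replicate 3 was only just below vector replicate 1. The means were 310 ± 116 and 426 ± 29.5 CPM (SD, n = 3), and the log2 fold change was -0.46 (SE 0.263, 95% confidence interval -1.06 to 0.15, adjusted p = 0.65 by edgeR). Without METTL3 replicate 1 the log2 fold change was -0.16, and without METTL3 replicate 3 it was -0.65. The groups did not overlap with TMM or upper-quartile scaling, and they did overlap with median-ratio scaling or library totals alone.

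MT1E was at 78.2, 126 and 152 CPM with METTL3 and at 162, 123 and 132 CPM with vector. The groups overlapped, with METTL3 replicates 2 and 3 inside the vector range and METTL3 replicate 1 far below it. The means of 118 ± 37.2 and 139 ± 20.5 CPM (SD, n = 3) differed by a log2 fold change of -0.23 (SE 0.23, adjusted p = 0.776 by edgeR), which was 0.02 without METTL3 replicate 1 and -0.43 without METTL3 replicate 3.

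MT1X had the smallest p-value of the 8 members. It was at 1.91, 3.15 and 3.12 CPM with METTL3 and at 4.6, 4.41 and 4.81 CPM with vector. All METTL3 libraries were below all vector libraries under each of the 4 scalings. The log2 fold change was -0.76 (SE 0.223, 95% confidence interval -1.27 to -0.25, adjusted p = 0.454 by edgeR), a level 1.69-fold lower.

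MT1F was at 4.54, 6.23 and 6.4 CPM with METTL3 and at 9.27, 7.23 and 7.6 CPM with vector. The groups did not overlap under any of the 4 scalings, and the log2 fold change was -0.49 (SE 0.189, adjusted p = 0.565 by edgeR), or -0.32 without METTL3 replicate 1. Over all genes tested, 17.4% had groups that did not overlap, 8.93% with METTL3 lower and 8.47% with METTL3 higher. Among the members these were MT2A, MT1F and MT1X on the lower side and MTF1 on the higher side.

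MT1M and MT1G were close to the floor of the data. MT1M had 22, 52 and 74 counts with METTL3 and 38, 85 and 110 counts with vector, that is 0.195 to 0.733 and 0.401 to 0.996 CPM. MT1G had 18, 14 and 15 counts with METTL3 and 54, 20 and 15 counts with vector, so that 1 library, vector replicate 1, was well above the other 5. Their log2 fold changes were -0.68 (SE 0.499) and -1.05 (SE 0.581), with adjusted p of 0.696 and 0.641 by edgeR. Without vector replicate 1 the value of MT1G was -0.16. That of MT1M was -0.31 without METTL3 replicate 1 and -1.20 without METTL3 replicate 3.

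The zinc sensor and the zinc exporter lay on the other side of 0. MTF1 was at 29.6, 28.6 and 26.7 CPM with METTL3 and at 24.9, 25.8 and 24.3 CPM with vector, with no overlap under any of the 4 scalings. Its log2 fold change was 0.18 (SE 0.109, 95% confidence interval -0.07 to 0.43, adjusted p = 0.655 by edgeR). SLC30A1 was at 104, 92.5 and 86.4 CPM with METTL3 and at 89.7, 85.7 and 81 CPM with vector, and the groups overlapped. Its log2 fold change was 0.14 (SE 0.115, 95% confidence interval -0.12 to 0.41, adjusted p = 0.723 by edgeR), or 0.09 without METTL3 replicate 1 and 0.22 without METTL3 replicate 3.

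Adding the rows up gives a value that does not depend on how reads counted once were divided among the 6 members. Shared reads that were dropped, counted for several genes or given to other rows would still change it. Their summed level was 263, 495 and 556 CPM with METTL3, and 572, 564 and 599 CPM with vector. With TMM scaling the vector libraries spanned a narrow range and all METTL3 libraries were below it. METTL3 replicate 1 was far below it, and METTL3 replicate 3 only just below. The separation is not given for other scalings, and MT2A, the largest part of the sum, overlapped with median-ratio scaling or library totals. Groups did not overlap for 17.4% of all genes tested. Fitted as 1 row, the sum had a log2 fold change of -0.40, where the SD of its log2 CPM within groups was 0.41. Without METTL3 replicate 1 the log2 fold change was -0.12. The 6 members made up 0.0273% of all counts in METTL3 replicate 1 and 0.0489% to 0.0599% in the other 5 libraries.

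Without replicate 1 of either group the standard errors were smaller, and 2 metallothioneins passed the test. In replicates 2 and 3, MT1X had a log2 fold change of -0.56 (SE 0.124, adjusted p = 0.00668 by edgeR) and MT2A one of -0.23 (SE 0.0576, adjusted p = 0.0133), so MT1X was 1.47-fold and MT2A 1.17-fold lower with METTL3. This is 2 of 8 members, both lower, where 15.2% of 22046 genes were called in either direction and 8.59% were called lower. Over all alternatives the adjusted p of MT1X ran from 0.00668 to 0.904 and that of MT2A from 0.0133 to 0.904, in each case lowest without replicate 1 and highest without vector replicate 3. MT1E turned its sign, at 0.12 (95% confidence interval -0.05 to 0.29, adjusted p = 0.383). MT1F was at -0.23 (adjusted p = 0.135), MT1M at -0.62 (adjusted p = 0.208) and MT1G at -0.27 (adjusted p = 0.818). MTF1 at 0.14 (adjusted p = 0.201) and SLC30A1 at 0.10 (adjusted p = 0.293) kept small positive values that missed the threshold. METTL3 itself passed in these 4 libraries, at 1.28 (adjusted p = 1.59e-08). Cell type markers also moved in them. All 5 epithelial markers were called higher with METTL3, from 0.23 for KRT8 and KRT18 to 0.91 for CDH1, and their summed level was 7114 and 6912 CPM with METTL3 against 5693 and 5593 CPM with vector. Of the 3 endothelial markers, PECAM1 was called higher, at 0.69 (adjusted p = 0.00238), and the summed level was 9.77 and 7.99 CPM against 6.07 and 5.15 CPM. Immune markers summed to 7.42 and 7.74 CPM against 7.12 and 8.06 CPM, fibroblast markers to 17.8 and 18.2 CPM against 17.8 and 16.8 CPM, and none of their tested genes were called. The part of these markers in the metallothionein result was not tested.

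**Figure D3:**
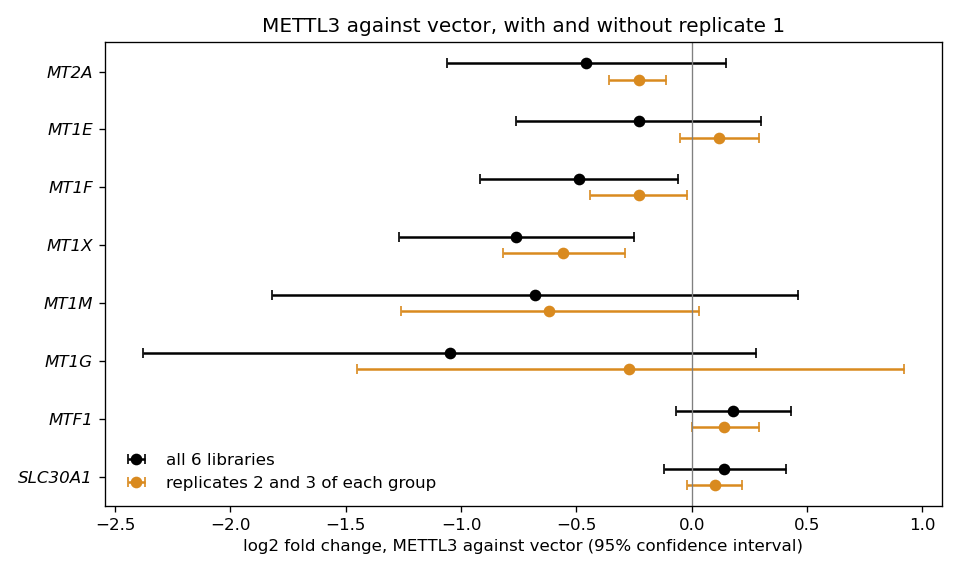
Log2 fold change of METTL3 against vector (x axis) for each member (y axis), with 95% confidence intervals, from all 6 libraries (black) and from replicates 2 and 3 of each group (orange). Without replicate 1 the intervals shrink, those of MT2A, MT1F and MT1X lie below 0, and MT1E moves from -0.23 to 0.12.

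The size of the METTL3-vector difference depended on the replicate number. Within replicate 1, the METTL3 library minus the vector library was -1.15 for MT2A, -1.05 for MT1E, -1.03 for MT1F and -1.26 for MT1X on the log2 scale. Within replicates 2 and 3 the same differences were -0.26 and -0.21 for MT2A, 0.03 and 0.20 for MT1E, -0.21 and -0.25 for MT1F, and -0.48 and -0.62 for MT1X. An interaction term, added after these values were seen, tested whether the difference in replicate 1 was unlike that in replicates 2 and 3. Replicate 1 has 1 library per group in this fit, and its spread was assumed to be that between replicates 2 and 3. The interaction was -0.92 for MT2A (SE 0.0992, adjusted p = 4.95e-05 by edgeR), -1.17 for MT1E (SE 0.137, adjusted p = 0.000104), -0.80 for MT1F (SE 0.172, adjusted p = 0.00334) and -0.71 for MT1X (SE 0.226, adjusted p = 0.0309). These are 4 of 8 members, all with a lower value in replicate 1, where 30.2% of all genes tested were called and 15.5% were called lower. MT1X was not called without METTL3 replicate 2, METTL3 replicate 3 or vector replicate 2 (adjusted p of 0.0648, 0.0814 and 0.0674). METTL3 itself had an interaction of -0.36 (adjusted p = 0.0103). MTF1 and SLC30A1 both had one of 0.11 (adjusted p of 0.535 and 0.44), and MT1M and MT1G were not called either (adjusted p of 0.678 and 0.181).

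METTL3 replicate 1 had the lowest metallothionein levels. It was the lowest of the 6 libraries for MT2A, MT1E, MT1F, MT1X and MT1M, as it was for 23.6% of all genes tested. Relative to the mean of the other 5 libraries it stood at 43.9% for MT2A, 56.3% for MT1E, 61.8% for MT1F, 47.7% for MT1X and 29.5% for MT1M, and at 114% for MTF1 and 120% for SLC30A1. The METTL3 mRNA of this library, 152 CPM, was the lowest of its group. The endothelial marker PECAM1 was highest in it, at 21.4 CPM against 4.67 to 9.3 CPM in the other 5 libraries, with VWF and CDH5 under 0.5 CPM in all 6. The part of these in the metallothionein result was not tested.

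**Figure D4:**
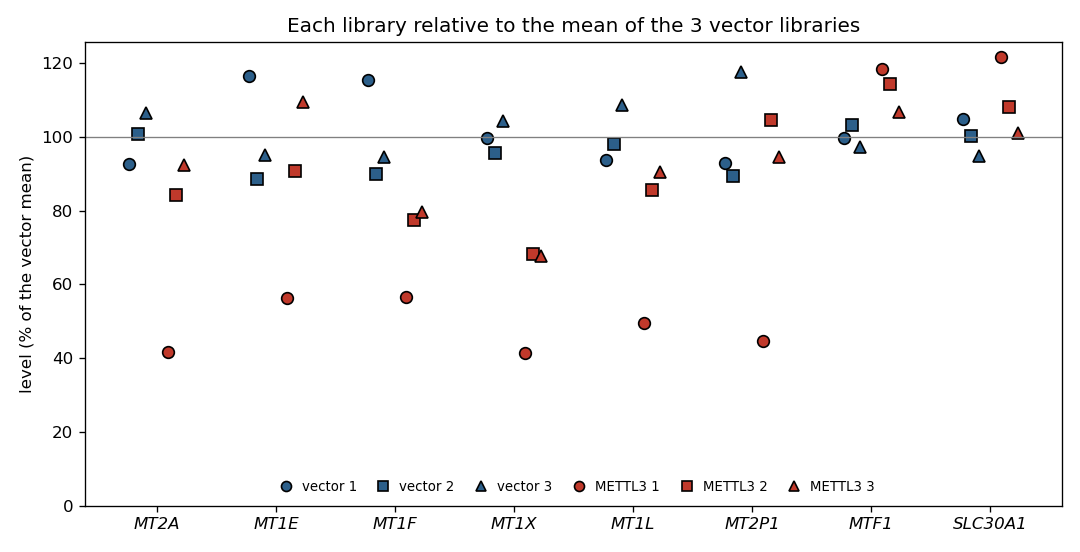
Level of 6 metallothionein rows, MTF1 and SLC30A1 (x axis) in each library as a percentage of the mean of the 3 vector libraries (y axis), blue for vector and red for METTL3, with 1 symbol per replicate number. The red circle of METTL3 replicate 1 sits far below the other 5 points for the metallothionein rows, the pseudogenes MT1L and MT2P1 included, and above them for MTF1 and SLC30A1.

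Over both groups, no member passed the test of replicate 1 against replicates 2 and 3 (0 of 8, where 9.06% of all genes were called). At an unadjusted p under 0.05 there were 3 of 8, against 27.5% of all genes. MT1M came nearest, at a log2 difference of -1.32 (SE 0.331, adjusted p = 0.0516 by edgeR), followed by MT2A at -0.59 (SE 0.201, adjusted p = 0.11) and MT1G at 1.19 (SE 0.438, adjusted p = 0.135). The count changed with single libraries and was 6 of 8 without vector replicate 1, where 26.1% of all genes were called, and 4 of 8 without METTL3 replicate 1, where 40.2% were called, near the share of the members. With 1 library left out, the log2 difference ran from -1.08 to -0.20 for MT2A, from -0.71 to -0.05 for MT1X and from 0.29 to 1.81 for MT1G, with vector replicate 1 and METTL3 replicate 1 at the ends. The vector library of replicate 1 held the highest MT1E, MT1F and MT1G levels of all 6 libraries, and the METTL3 library of replicate 1 the lowest MT1E and MT1F levels.

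The other metallothionein rows of the table were 15, of which 12 were too low to be tested. MT1H, MT3, MT1HL1 and MT1CP had a count of 0 in every library, and no other untested row exceeded 22 counts, which was MT1A in vector replicate 3. Counts reached 16 for MT1XP1, 12 for MT1P1, 5 for MT1JP, 2 for MT1B and MT1P3, and 1 for MT1IP and MT4. MT3 is the metallothionein of brain and MT4 that of stratified epithelia. The 3 tested rows are all annotated as pseudogenes. MT1L was at 5.11, 8.83 and 9.33 CPM with METTL3 and at 9.66, 10.1 and 11.2 CPM with vector, a log2 fold change of -0.41 (SE 0.228, adjusted p = 0.641 by edgeR). MT2P1 was at 3.24, 7.6 and 6.86 CPM with METTL3 and at 6.75, 6.5 and 8.53 CPM with vector, at -0.30 (SE 0.301, adjusted p = 0.778), and MT1DP, with 13 to 41 counts, was at -0.44 (adjusted p = 0.815).

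MT1L and MT2P1 were lowest in METTL3 replicate 1, as the abundant members were. The interaction was -1.01 for MT2P1 (adjusted p = 0.00522 by edgeR) and -0.68 for MT1L (adjusted p = 0.00715). Counts of MT2P1 were 1.52% to 2.12% of those of MT2A in every library, and counts of MT1L were 5.96% to 8.51% of those of MT1E. MT2P1 shared 15.7% of its 50-base words with other genes, and whether its counts came from MT2A reads was not tested. MT1L shared 11.7% of its 50-base words, with MT1P3 and not with MT1E.

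The 5 genes outside the metallothionein and zinc lists whose pattern was most like that of MT2A were USP2-AS1, SPDL1, HSD17B2, FXR1 and SETP14. Likeness was Pearson's r of log2 CPM over the 6 libraries, searched over 14617 genes with a mean of at least 1 CPM, and r was 0.999 for USP2-AS1, SPDL1 and HSD17B2 and 0.997 for FXR1 and SETP14. SPDL1, a kinetochore adaptor for dynein, was at 65.3, 120 and 125 CPM with METTL3 and at 127, 135 and 141 CPM with vector. FXR1, an RNA-binding protein of the fragile X family, was at 221, 348 and 361 CPM with METTL3 and at 378, 387 and 395 CPM with vector. In all 5 genes, as in MT2A, METTL3 replicate 1 was the lowest library, and r over the other 5 libraries was 0.95 to 0.99. These genes were picked for their r, USP2-AS1 is an antisense gene whose counts depend on strand, and SETP14 is a processed pseudogene.

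Other genes of zinc transport had values nearer to 0. Zinc exporters of the SLC30 family and TMEM163, other than SLC30A1, had 8 of 10 genes tested, 2 positive and 6 negative, with a median log2 fold change of -0.06 and 0 called. The 3 most abundant were SLC30A9 at -0.14 (SE 0.126), SLC30A6 at -0.05 (SE 0.12) and SLC30A5 at -0.01 (SE 0.101). Zinc importers of the SLC39 family had 12 of 14 genes tested, with a median of -0.06 and 0 called. The 3 most abundant were SLC39A7, which releases zinc from the endoplasmic reticulum, at -0.08 (SE 0.108), SLC39A9 at -0.14 (SE 0.152) and SLC39A14 at 0.01 (SE 0.147). These medians stood close to the -0.02 of all genes tested, and the -0.59 of the 6 metallothioneins was further from it, a difference that was not tested. In replicates 2 and 3 alone the median was -0.25 for the 6 metallothioneins, -0.02 for the zinc exporters and -0.08 for the zinc importers. It was -0.28 there for the glucocorticoid-responsive genes described next.

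Genes that answer to the same inducers were described in the same way. Of 13 genes induced by heavy metals or oxidants, all were tested, 8 were positive and 5 negative, the median was 0.03 and 0 were called. SLC7A11, the cystine transporter that feeds glutathione synthesis, was the gene of that list with an unadjusted p under 0.05, at 0.35 (SE 0.124, adjusted p = 0.551 by edgeR). Of 10 glucocorticoid-responsive genes, taken because MT2A is also induced by glucocorticoids, 9 were tested, with a median of -0.07 and 0 called. ERRFI1, a feedback inhibitor of EGFR, was the gene here with an unadjusted p under 0.05, at 0.42 (SE 0.174, adjusted p = 0.586).

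Of 10 other genes of zinc and copper handling, all were tested, with a median of -0.17 and 0 called. SOD1 and ATOX1 had an unadjusted p under 0.05. SOD1, the copper-zinc superoxide dismutase, was at 94.7, 126 and 133 CPM with METTL3 and at 184, 140 and 162 CPM with vector. Its groups did not overlap, and its log2 fold change was -0.46 (SE 0.163, adjusted p = 0.558 by edgeR). ATOX1, the copper chaperone that hands copper to ATP7A and ATP7B, was at 48.7, 57.9 and 60.3 CPM with METTL3 and at 86.8, 66.5 and 68.4 CPM with vector. Its log2 fold change was -0.41 (SE 0.144, adjusted p = 0.547).

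Without replicate 1, some of these lists held called genes. Glucocorticoid-responsive genes had 5 of 9 called lower and 0 higher, among them FKBP5 at -0.36 (adjusted p = 0.000578 by edgeR), a co-chaperone of the glucocorticoid receptor. Other zinc and copper genes had 4 of 10 called lower and 1 higher, with ATP7B, a copper-exporting ATPase, at -0.59 (adjusted p = 0.000663), SOD1 at -0.22 (adjusted p = 0.0456) and ATOX1 at -0.19 (adjusted p = 0.0301). Zinc importers had 2 of 12 called higher and 1 lower, metal and oxidant genes had 2 of 13 higher and 0 lower, and zinc exporters had 0 of 8. All genes tested had 6.66% called higher and 8.59% called lower. FKBP5 and ATP7B were named after their values were seen.

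**Figure D5:**
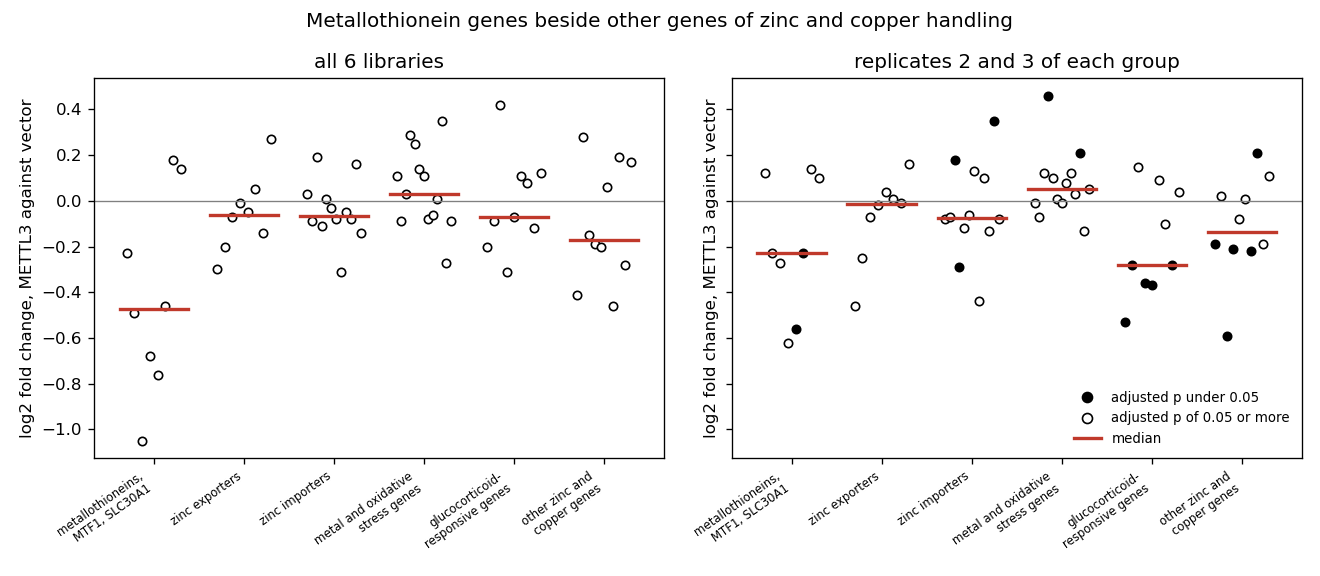
Log2 fold change of METTL3 against vector (y axis) for each tested gene of 6 gene lists (x axis), from all 6 libraries (left) and from replicates 2 and 3 of each group (right). Filled points have an adjusted p under 0.05 by edgeR and red lines are list medians. On the left no point is filled and only the metallothionein list has a median below -0.4. On the right MT1X and MT2A are filled among the members, and points of other lists are filled as well. The median there is -0.23 for the members and -0.28 for the glucocorticoid-responsive genes, of which 5 of 9 were called lower.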

How the data were processed

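RNA-seq was performed on 6 OVCAR5 libraries, 3 with METTL3 and 3 with empty vector. The authors aligned reads to hg38 with hisat2 and counted them per gene with Subread, and the deposited values are raw counts, whole numbers with no normalization. The submitters' processing notes also name fastp and featureCounts. Versions, annotation release and the use of strand are not given in the sources used here. Every column was mapped to a library by its name, with 0 columns left unmapped. Of counts from 1 to 20, 67.6% to 70.5% were even, so counts divided by 2 were also fitted.

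GENCODE release 44 named 60463 of 60649 rows. Rows kept by the filterByExpr function (edgeR 4.0.16, R 4.3.3) were scaled by TMM and fitted with edgeR's robust glmQLFit, followed by glmQLFTest. The p-values were adjusted over all genes by the Benjamini-Hochberg method, at a threshold of 0.05. Standard errors are the size of the log2 value over the square root of F. CPM are TMM-scaled. DESeq2 1.42.0, used in the study, was an alternative, as were median-ratio and upper-quartile factors, omission of the low-count filter, a minimum of 10 counts per library, a threshold of 0.01, the replicate block, each library left out, and replicates 2 and 3 alone. The interaction was added after the values were seen. The scripts were tested on simulated data. Promoter sequences are from RefSeq (GRCh38.p14), and transcript and coding sequences are from GENCODE.

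The members and lists were chosen with earlier results of these data known. Named are all members, METTL3, all other metallothionein rows, from each list the genes with an unadjusted p under 0.05 or else the 3 of highest mean CPM, and the 5 genes most like MT2A. Deviations from group means correlated at 0.33, 0.12 and 0.17 between same-numbered libraries, each over the minimum of 0.1. On the evidence of these values and not of the labels, pairs were used for the replicate block and the differences within replicates. The main fit was unpaired. Libraries with unlike numbers reached 0.21, for METTL3 replicate 2 and vector replicate 3, above the 0.12 of replicate 2. METTL3 replicate 3 and vector replicate 2 were at 0.13, so these crossed pairs also passed the minimum. The values therefore do not tell how the libraries of replicates 2 and 3 pair, and the pairing is uncertain.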

Additional observations from a re-analysis of the deposited data

Results flagged for a closer look

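The METTL3-vector difference of 4 metallothioneins was unlike in replicate 1 and in replicates 2 and 3, by the interaction term of edgeR's quasi-likelihood test that was added after the values were seen. The log2 interaction was -1.17 for MT1E, -0.80 for MT1F, -0.71 for MT1X and -0.92 for MT2A. In each of the 4 genes the METTL3 library of replicate 1 was the lowest of the 6 libraries. For MT1E (162 CPM) and MT1F (9.27 CPM) the vector library of replicate 1 was also the highest. The term is called for 30.2% of all genes tested, and 15.5% of all genes tested are called lower, as these 4 are. MT1X lost its call with DESeq2, with no filter and in some fits with 1 library left out.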

How the results depend on the processing

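Counts of changed genes between METTL3 and vector depended on the processing. Against 0 genes with all 6 libraries and edgeR, DESeq2 called 213, no filter 560 and replicates 2 and 3 alone 3362, of which 2 were members. Leaving out 1 library gave 0 to 367 genes, the highest without vector replicate 1, and 0 members each time. With the replicate block, which uses the pairing, 0 genes and 0 members were called, and it changed no call. In that fit MT1X was at -0.79 (adjusted p = 0.277 by edgeR) and MT2A at -0.53 (adjusted p = 0.427). Of the members' log2 fold changes under these alternatives, 107 kept their direction and their side of the threshold, 2 passed it (MT1X and MT2A in replicates 2 and 3 alone) and 2 turned their sign. MT1E turned to 0.12 in replicates 2 and 3 alone, and its range over single left-out libraries was -0.43 to 0.02.

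For replicate 1 against replicates 2 and 3, the 1997 genes became 3150 with DESeq2, 4220 with no filter, and 233 to 9028 with 1 library left out. Members called went from 0 to 2 with DESeq2, 1 with median-ratio factors, 1 with at least 10 counts in every library, 2 with no filter, and 0 to 6 with 1 library left out. MTF1 turned to -0.0015 with DESeq2. With 1 library left out, the ranges that crossed 0 were -0.83 to 0.30 for MT1E, -0.48 to 0.28 for MT1F and -0.06 to 0.10 for MTF1, with -0.02 for MTF1 without METTL3 replicate 3. For the interaction, MT1M ranged from -0.74 to 0.07, and MT1X lost its call with DESeq2 (adjusted p = 0.119) and with no filter (adjusted p = 0.0538). The causes were not tested. At 14 to 54 counts, MT1G limits what depth can resolve. MT1G had no adjusted p by DESeq2 for replicate 1 and no row with counts divided by 2. Fits that leave out 1 library of replicate 1 rest on a lone library assumed to vary like the others.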
